A study of Mustela putorius furo and Mus musculus with 4 samples.

Results

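The genes described here encode 10 receptors for extracellular nucleotides and adenosine: P2ry1, P2ry2, P2ry6, P2ry12, P2ry13, P2ry14, P2rx4, P2rx7, Adora1 and Adora2b. They were chosen by symbol, without regard to case, among the 13373 gene symbols shared by the ferret and mouse values, and all 10 were found, each with a single value per library. Expression was measured by RNA-seq in 2 libraries of cultured ferret astrocytes and 2 of cultured mouse astrocytes. The ferret cells came from the cerebral cortex of animals on postnatal day 1 (P1) and the mouse cells from that of wild-type ICR mice on P1 to P3. The labels name no transgene or drug in either group. Both were grown as mixed glia for 14 days in medium with 10% fetal bovine serum, shaken, replated, kept without serum from day 3 and harvested on day 7. By the study's methods the serum-free medium of both groups contained heparin-binding EGF-like growth factor, progesterone and N-acetyl cysteine. Mouse flasks held cells pooled from several pups, whereas cells of a single ferret pup were spread over several flasks. The libraries are labelled as duplicates, and nothing in the labels says that they came from separate animals or cultures, so p-values measure only the spread between these libraries, which may be technical. Values are in FPKM, a fragment count divided by exon length and by the mapped fragments of the library. Each species was quantified on its own genome annotation, so species, gene model and culture cannot be told apart.

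ATP and other nucleotides released by brain cells act on 2 receptor families. P2X receptors are cation channels that ATP opens directly. P2Y receptors signal through G proteins, and those coupled to Gq release calcium from internal stores, whereas those coupled to Gi lower cyclic AMP. Enzymes on the cell surface break ATP down stepwise to adenosine, which acts on its own G protein-coupled receptors. Astrocytes are known to answer ATP with calcium waves, and microglia are known for P2ry12, which guides their processes towards released nucleotides. The study applied ATP to ferret astrocytes grown with serum and imaged calcium. The libraries here were not made from those stimulated cells.

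Ferret astrocytes had lower levels of the adenosine receptor gene Adora1 and of most P2Y genes, and none of these 10 genes was called higher. Outside the 10, the receptor gene P2rx6 was called higher, as given below. Of the 9 receptor genes tested, 6 were lower in ferret astrocytes and 0 were higher. Here a gene is counted when its p from limma, adjusted by the Benjamini-Hochberg method, was under 0.05 and its log2 difference exceeded 1 in size, on the log2(FPKM + 1) scale. Among all 10204 genes tested, 30.1% were lower in ferret astrocytes and 13.1% were higher by the same rule. Genes entered the test at a mean of 1 FPKM or more in either species. P2ry6, P2ry12 and P2ry13 did so only through the mouse libraries, so they could not have been called higher. By the adjusted p alone, 7 of the 9 were lower and 2 were higher, but this held for 56.2% and 32.4% of all genes, so the adjusted p alone separates few genes from the rest. The median log2 difference of the 9 genes was -1.65, against -0.35 for all genes tested. In each of the 10 genes the 2 ferret libraries lay on one side of the 2 mouse libraries, as they did for 86.1% of all shared symbols. For a single gene, an exact permutation test over 4 libraries could not give a p below 0.05.

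**Figure D1:**
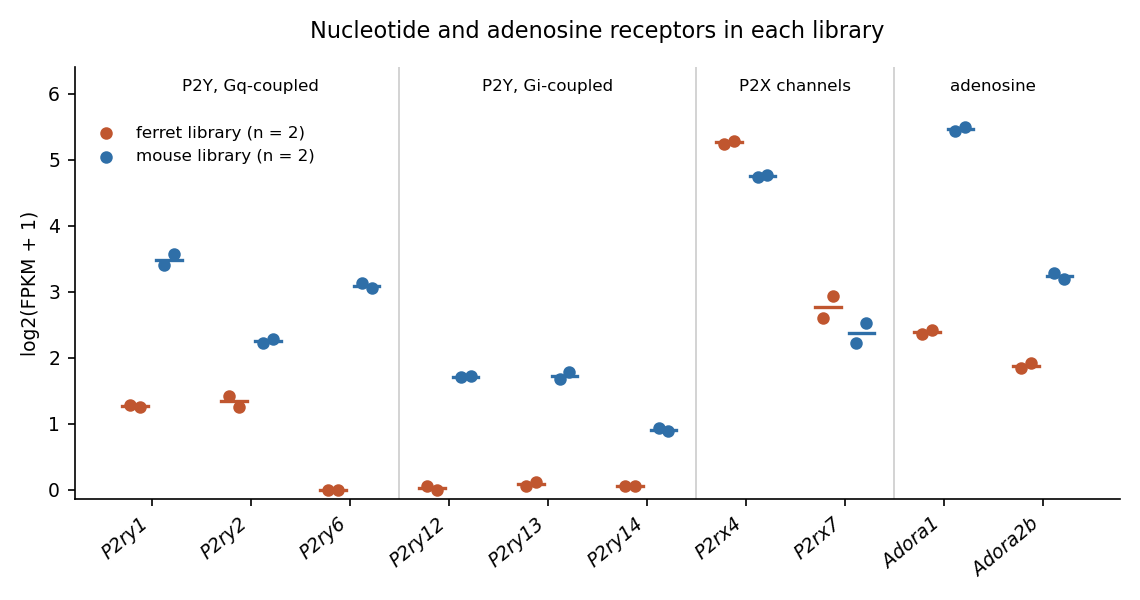
Level of each receptor gene in each library, on the log2(FPKM + 1) scale, grouped by receptor class. Points are libraries and lines their mean on this scale, and P2rx4 and P2rx7 are the genes whose ferret libraries lie above the mouse libraries.

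Among the P2Y genes coupled to Gq, P2ry1 encodes a receptor for ADP that is known to drive calcium responses in astrocytes. Its ferret duplicates stood at 1.44 and 1.37 FPKM and its mouse duplicates at 9.57 and 10.9 FPKM. Mouse libraries were thus 7.29-fold higher on average. The log2 difference of -2.22 (standard error, SE, 0.084, limma adjusted p = 4.13e-09) was many times the spread between duplicates. P2ry2 encodes a receptor for ATP and UTP. Its FPKM was 1.67 and 1.39 in ferret and 3.67 and 3.85 in mouse astrocytes. The log2 difference was -0.91 (SE 0.084, limma adjusted p = 3.18e-06), which is under the size required for a call. With a pseudocount of 0.1 it was -1.25 and passed.

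P2ry6 encodes the third receptor of this group, which responds to UDP and is known in microglia as a trigger of phagocytosis. It is listed at 0 in both ferret libraries, against 7.74 and 7.29 FPKM in the mouse libraries. On the log2(FPKM + 1) scale the difference was -3.09 (SE 0.077, limma adjusted p = 2.84e-10), and no fold can be given against a gene listed at 0. On this scale P2ry6 and Adora1, at -3.09 and -3.07, had the largest differences of the 9 genes and could not be ranked against each other. Without ferret replicate 2 they stood at -3.09 and -3.11, and without mouse replicate 1 at -3.05 and -3.10. The mouse gene lies on the minus strand of chromosome 7 (GRCm38, 100937630 to 100974649), next to P2ry2 at 100996568 to 101012866 on the same strand. These genes, neighbours in the mouse, differed in whether any ferret signal was listed, and their positions in the ferret were not examined here. Over the 4 libraries the tested genes closest to P2ry6 were Itgam at a Euclidean distance of 0.024 on the log2(FPKM + 1) scale, Cklf at 0.038 and Ptgs2 at 0.049. Itgam, an integrin gene of microglia and other myeloid cells, had 0 and 0.00748 FPKM in ferret and 7.66 and 7.39 in mouse astrocytes. Cklf had 0 and 0 against 7.84 and 7.48 FPKM, and Ptgs2 had 0.0204 and 0.00795 against 7.52 and 7.36. Over 4 libraries this distance picks genes of similar level and does not show a shared cell of origin.

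The P2Y genes coupled to Gi were near 0 in ferret astrocytes. P2ry12, an ADP receptor gene and a marker of microglia, stood at 0.0343 and 0 FPKM in ferret and at 2.26 and 2.3 FPKM in mouse astrocytes, a log2 difference of -1.69 (SE 0.076, limma adjusted p = 1.43e-08). P2ry13, a further ADP receptor gene, had 0.0346 and 0.0811 FPKM in ferret and 2.19 and 2.44 FPKM in mouse astrocytes. Its log2 difference was -1.65 (SE 0.081, limma adjusted p = 2.6e-08). Pseudocounts weigh heavily at such levels, and with a pseudocount of 0.1 the differences of P2ry12 and P2ry13 were -4.36 and -3.95. P2ry14, which encodes a receptor for UDP-sugars, was under the minimum mean of 1 FPKM in both species and was not tested in the main comparison. Its FPKM was 0.0342 and 0.0401 in ferret and 0.903 and 0.851 in mouse astrocytes. Without the minimum its log2 difference was -0.86 (limma adjusted p = 1.93e-04), under the size required for a call.

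These 3 genes lie side by side in the mouse genome, inside Med12l, a gene for a Mediator subunit that is read from the opposite strand. On the minus strand of chromosome 3 (GRCm38), P2ry14 occupies 59113855 to 59153618, P2ry13 59207892 to 59210882 and P2ry12 59216272 to 59262871. Med12l spans 59005825 to 59318682 on the plus strand. The RefSeq gene table of the ferret is on another assembly than the one the authors used. There the start and end positions of the same 3 genes fall within those of MED12L. That table names no chromosome for them, so whether they lie on the same sequence as MED12L was not settled. The library kit marks strand, but whether the quantification used it is not given in the sources used here, so reads of Med12l and of the 3 receptor genes may not have been kept apart. Med12l had 1.72 and 1.51 FPKM in ferret and 1.28 and 1.46 FPKM in mouse astrocytes, a log2 difference of 0.14 (limma adjusted p = 0.129). Its difference missed the threshold of the adjusted p. P2ry1 lies farther along the same chromosome, from 61002795 to 61008982 on the plus strand.

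The libraries also differed in markers of microglia, the cells in which P2ry6, P2ry12 and P2ry13 are best known. Of 20 microglial markers, 18 had values in both species, and 16 of these 18 were lower in ferret astrocytes and 0 higher (1 higher after rescaling or quantile normalization). Among all genes tested, 30.1% were called lower and 13.1% higher. Those with a ferret mean under 1 FPKM, such as Aif1, Csf1r and Cx3cr1, were tested only through the mouse libraries and could not have been called higher. The largest differences were those of Tyrobp, C1qb, C1qc and Ctss, at -6.45, -6.26, -6.19 and -5.99. The median log2 difference of the 18 markers was -4.54, against -0.35 for all genes tested. The summed level of the 18 markers came to 94.2 and 93.2 FPKM for the ferret and to 1051 and 1029 FPKM for the mouse. Over the 16 markers called lower alone, it was 13.1 and 11.7 FPKM for the ferret and 955.7 and 933.5 FPKM for the mouse. Sall1, which was not called, had 15.7 and 15.1 FPKM in ferret and 8.24 and 8.45 FPKM in mouse astrocytes. Of the defining markers, Cx3cr1 is listed at 0 in both ferret libraries, with 15.0 and 16.5 FPKM in mouse libraries. Csf1r had 0.233 and 0.296 FPKM in ferret and 33.6 and 30.6 in mouse astrocytes, and Aif1 had 0.0495 and 0.0465 against 12.6 and 10.6. The part of microglial RNA in the difference of P2ry6, P2ry12, P2ry13 and P2ry14 was not tested. In bulk libraries, fewer cells of a type and less RNA per cell cannot be told apart. By immunostaining of replated cells grown with serum, the study counted a smaller share of microglia in ferret than in mouse cultures. It reported a small share of neurons in the ferret cultures alone. Those counts were not made on the sequenced cells, and the part of cell number in the RNA values was not tested.

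Neither P2X gene passed the size required for a call. P2rx4 encodes an ATP-gated channel with high calcium permeability. It stood at 36.8 and 38.1 FPKM in ferret and at 25.6 and 26.2 FPKM in mouse astrocytes, so ferret libraries were 1.45-fold higher. The log2 difference was 0.52 (SE 0.059, 95% interval 0.38 to 0.65, limma adjusted p = 1.73e-05), larger than the spread between duplicates but below the size required for a call. P2rx7 encodes the channel that opens only at high ATP and is known for its role in inflammation. Its FPKM was 5.08 and 6.61 in ferret and 3.66 and 4.76 in mouse astrocytes. The duplicates of P2rx7 were far apart in both species, and the lower ferret and the upper mouse library nearly touched. Its log2 difference of 0.39 (SE 0.127, 95% interval 0.11 to 0.68, limma adjusted p = 0.0148) lost the adjusted p threshold when ferret replicate 2 was left out (adjusted p = 0.199, log2 difference 0.23), when mouse replicate 1 was left out (adjusted p = 0.21, log2 difference 0.24), and without the minimum on FPKM (adjusted p = 0.14).

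P2rx7 and P2rx4 are neighbours on the plus strand of mouse chromosome 5 (GRCm38), P2rx7 at 122643911 to 122691432 and P2rx4 at 122707544 to 122729738. The ratio of P2rx4 to P2rx7 within a library was 7.25 and 5.77 in ferret and 6.99 and 5.51 in mouse astrocytes. These ratios overlapped between species, and a ratio within a library does not depend on a rescaling of the library.

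Both adenosine receptor genes were lower in ferret astrocytes. Adora1 encodes the high-affinity, Gi-coupled A1 receptor, through which adenosine is known to dampen transmitter release. It had 4.13 and 4.37 FPKM in ferret and 42.3 and 44.0 FPKM in mouse astrocytes, and was thus 10.2-fold higher in the mouse. Its log2 difference was -3.07 (SE 0.066, limma adjusted p = 1.19e-10). Adora2b encodes a Gs-coupled receptor of low affinity, which raises cyclic AMP. Its FPKM was 2.58 and 2.77 in ferret and 8.72 and 8.16 in mouse astrocytes, 3.15-fold higher in the mouse, with a log2 difference of -1.36 (SE 0.076, limma adjusted p = 7.11e-08). After quantile normalization this difference was -0.93, under the size required for a call. The 2 receptor genes also stood in different proportion to each other. Adora1 was 1.6 and 1.58 times Adora2b in ferret and 4.86 and 5.4 times in mouse astrocytes, and these ratios did not overlap.

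Adora1 lies on the minus strand of chromosome 1 (GRCm38, 134199223 to 134235431) and overlaps Mybph on the other strand, so that the limit on strand given for Med12l holds here as well. It also holds for P2ry1 and P2ry6, which overlap the annotated genes Gm37035 and Gm44545 on the opposite strand. P2rx7 overlaps the microRNA gene Mir8115 on its own strand. Adora2b lies on the plus strand of chromosome 11 (62248984 to 62266453).

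**Figure D2:**
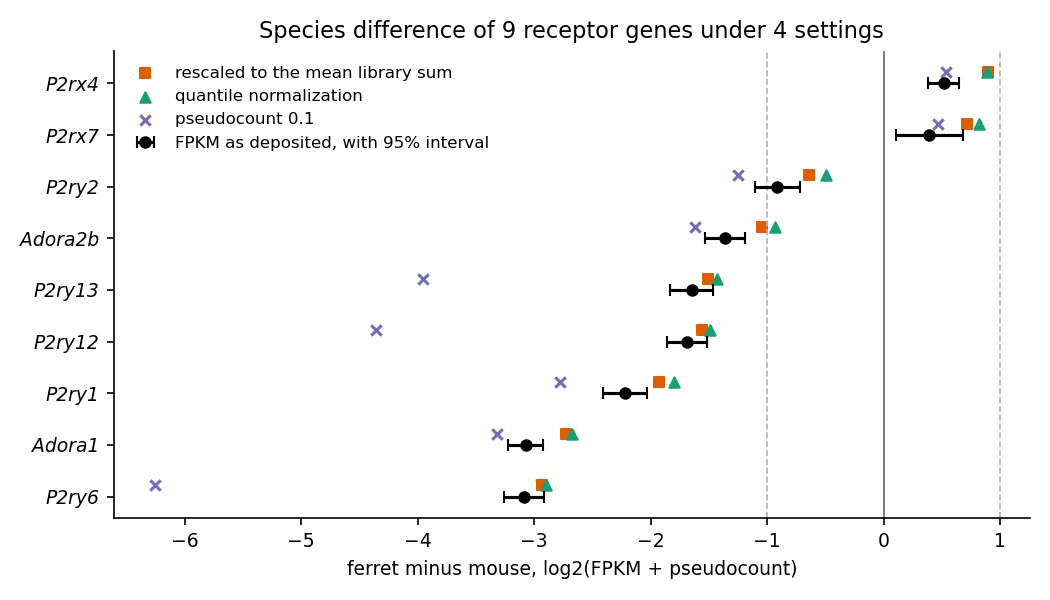
Difference between ferret and mouse astrocytes for the 9 receptor genes tested, on the log2 scale with a pseudocount of 1 or, for the crosses, 0.1. Black points with bars are FPKM as deposited with the 95% interval, squares and triangles are the rescaled and the quantile-normalized libraries, and the dashed lines mark a log2 difference of 1 in either direction.

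How large the differences are depends on the scaling between species, since the shared symbols sum to less FPKM in the ferret libraries. With each library rescaled to the mean of the 4 sums, the median of all genes tested moved from -0.35 to -0.002, and after quantile normalization it was 0.08. Under these scalings P2rx4 was at 0.89 and 0.88 and P2rx7 at 0.72 and 0.81, so that both remained under the limit of 1. Adora1 was at -2.72 and -2.68, P2ry6 at -2.93 and -2.9, and P2ry1 at -1.93 and -1.8. No receptor gene changed direction under either scaling, as the plot of differences under 4 settings shows. P2ry2 was at -0.64 and -0.5. By the same rule 6 receptor genes were lower after rescaling, where 21.7% of all genes were lower, and 5 after quantile normalization, where 20.4% were. With a pseudocount of 0.1 the count was 7, against 33.6% of all genes.

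The order of the receptor genes differed between the species. In ferret astrocytes P2rx4 was highest at 37.4 ± 0.945 FPKM (SD, n = 2), followed by P2rx7 at 5.84 ± 1.08, Adora1 at 4.25 ± 0.17 and Adora2b at 2.68 ± 0.13. P2ry2 and P2ry1 came next and overlapped with each other, as did each neighbouring pair among P2ry13, P2ry14, P2ry12 and P2ry6 at the lower end. In mouse astrocytes Adora1 was highest at 43.2 ± 1.21 FPKM (SD, n = 2), followed by P2rx4 at 25.9 ± 0.481, P2ry1 at 10.2 ± 0.948, Adora2b at 8.44 ± 0.395 and P2ry6 at 7.51 ± 0.319. P2rx7 and P2ry2 overlapped there, as did P2ry13 and P2ry12. Among all shared symbols, the mean of P2rx4 was above 90.4% of symbols in ferret and 80.8% in mouse astrocytes. Adora1 was above 47.8% in ferret and 89.0% in mouse astrocytes, and P2ry1 above 34.1% and 59.4%.

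As shares of the summed FPKM of the 10 genes, P2rx4 made up 71.0% and 69.6% in the ferret and 24.0% and 23.7% in the mouse. Adora1 made up 7.97% and 7.98% in ferret and 39.7% in each mouse library. The 6 P2Y genes together made up 6.22% and 5.26% in ferret and 24.7% and 24.9% in mouse astrocytes. The P2Y genes coupled to Gi held 0.199% and 0.221% of the ferret sums and 5.02% and 5.05% of the mouse sums. The summed level itself was 51.8 and 54.7 FPKM in ferret and 106.6 and 110.8 FPKM in mouse astrocytes.

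**Figure D3:**
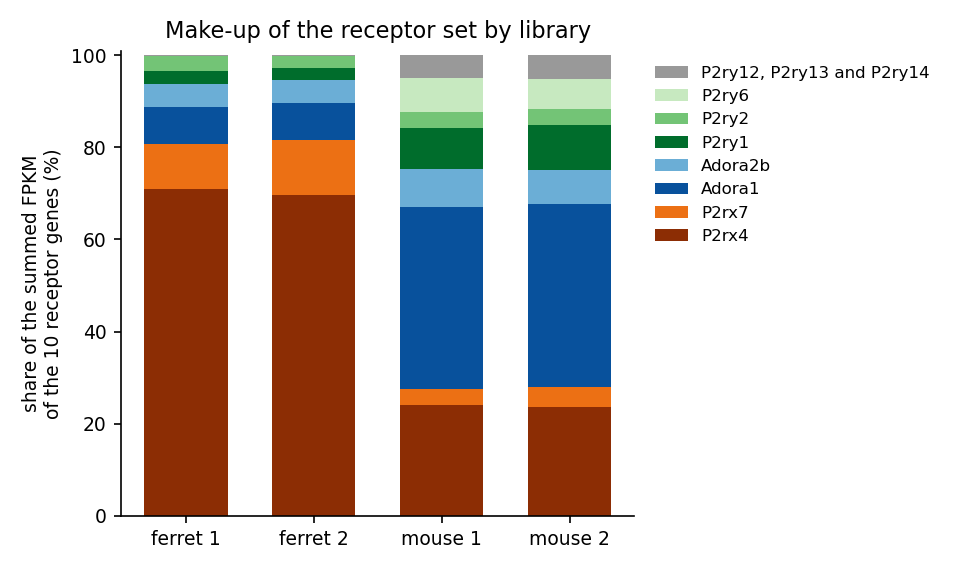
Share of the summed FPKM of the 10 receptor genes that each gene takes in each library, in percent, with the Gi-coupled P2Y genes drawn together. P2rx4 takes the largest share in the ferret libraries and Adora1 in the mouse libraries.

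Other receptors of these families were mostly at low levels. Of 9 further receptor genes, 8 had values in both species, and P2rx6 was the only one above the minimum. P2rx6 encodes a P2X subunit that forms channels poorly on its own. It was higher in ferret astrocytes, with 9.84 and 8.92 FPKM against 3.16 and 3.53 in the mouse, a log2 difference of 1.26 (limma adjusted p = 2.22e-07). P2ry4, P2ry10, P2rx1, P2rx2, P2rx3, Adora2a and Adora3 had means under 1 FPKM in both species. The highest of these was P2rx3 in mouse astrocytes, with 0.374 and 0.62 FPKM. The counts of the lists that follow are to be read against the 13.1% of all genes tested that were called higher and the 30.1% called lower.

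Of 9 genes for enzymes that break down extracellular nucleotides, 8 had values in both species and 5 were tested. All 5 were called lower in ferret astrocytes (4 after quantile normalization), against 30.1% of all genes tested, with a median log2 difference of -1.48. Enpp1, Entpd1, Entpd2 and Enpp2 passed the minimum only through the mouse libraries, so they could not have been called higher. The 3 under the minimum were Entpd3, listed at 0 in both ferret libraries with 0.421 and 0.424 FPKM in the mouse, Enpp3, whose libraries overlapped, and the phosphatase gene Alpl, which had 0.559 and 0.541 FPKM in ferret and 0.507 and 0.551 FPKM in mouse astrocytes. Enpp1, a phosphodiesterase that cleaves ATP, had 0.819 and 0.562 FPKM in ferret and 6.34 and 6.77 FPKM in mouse astrocytes. Entpd1, the ectonucleotidase also known as CD39, had 0.717 and 0.739 FPKM in ferret and 4.19 and 3.88 in mouse astrocytes. Entpd2, which prefers ATP and is known in astrocytes, had 0.512 and 0.583 against 3.14 and 3.5. Enpp2, the autotaxin gene, had 0.477 and 0.384 against 2.53 and 2.82. Nt5e, which encodes the enzyme CD73 that turns AMP into adenosine, had 5.77 and 4.91 in ferret and 15.3 and 15.2 in mouse astrocytes. Their log2 differences were -2.16, -1.54, -1.48, -1.36 and -1.36, with adjusted p-values of 9.69e-09, 3.19e-08, 6.2e-08, 1.26e-07 and 1.09e-07 by limma. Entpd1 is known in microglia, and the limits given for the microglial markers hold for it too.

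Of 8 genes for adenosine transport and breakdown, 7 had values in both species, 6 were tested and 1 was called, lower in ferret astrocytes. This was Adal, which encodes a protein similar to adenosine deaminase, at 2.68 and 2.89 FPKM in ferret and 10.5 and 10.6 in mouse astrocytes (log2 difference -1.61, limma adjusted p = 1.55e-08). Ada itself, at 0.653 and 1.1 FPKM in ferret and 2.37 and 2.89 in mouse astrocytes, lay just under the limit at -0.96, and without ferret replicate 2 or without mouse replicate 1 the count of called genes in this list was 2 in place of 1. With a pseudocount of 0.1 it was 3. Adk, the kinase by which astrocytes are known to clear adenosine, had 74.0 and 65.7 FPKM in ferret and 69.7 and 76.0 in mouse astrocytes. The groups overlapped, and its log2 difference was -0.06 (SE 0.074, limma adjusted p = 0.444).

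Genes for ATP release differed in both directions. Of 6 genes, 5 were tested, with 2 called higher and 2 lower in ferret astrocytes. Panx1, a channel through which ATP leaves cells, had 26.8 and 31.0 FPKM in ferret and 2.56 and 3.37 FPKM in mouse astrocytes, a log2 difference of 2.92 (limma adjusted p = 3.45e-09). Panx2, at 1.7 and 1.92 against 0.138 and 0.302 FPKM, was also higher in ferret astrocytes. Calhm2, a gene of the calcium homeostasis modulator family, had 0.043 and 0.0248 FPKM in ferret and 3.55 and 3.94 in mouse astrocytes. Panx2 passed the minimum only through the ferret libraries and Calhm2 only through the mouse libraries. Panx2 thus could not have been called lower, nor Calhm2 higher. Gja1, which encodes connexin 43, was lower in ferret astrocytes by a log2 difference of -1.34, with 69.7 and 61.9 FPKM against 162.6 and 172.8. After rescaling to the mean library sum or quantile normalization, 1 gene of this list was called lower in place of 2.

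Among 15 genes for G proteins and effectors of these receptors, 14 had values in both species and 13 were tested, of which 1 was called higher and 4 lower in ferret astrocytes. These counts were near the shares of 13.1% and 30.1% over all genes tested and do not set the list apart. The median of the list was -0.46, against -0.35 for all genes. Gnao1, the alpha subunit of Go, was lowest relative to the mouse, at 7.81 and 7.48 FPKM against 116.5 and 130.6, a log2 difference of -3.85 (limma adjusted p = 5.04e-11). Gna14, a relative of Gq, had 1.4 and 1.3 FPKM in ferret and 10.0 and 10.4 in mouse astrocytes. Gnaq itself had 19.5 and 21.6 FPKM in ferret and 21.7 and 22.0 in mouse astrocytes, a log2 difference of -0.08 (limma adjusted p = 0.26). Plcb4, a phospholipase C gene, was lower in ferret astrocytes, at 0.93 and 0.893 FPKM against 7.37 and 6.24. It passed the minimum only through the mouse libraries, so it could not have been called higher. Of the 3 IP3 receptor genes, 1 was called in each direction, with Itpr3 at 6.99 and 8.5 FPKM in ferret and 2.36 and 2.06 in mouse astrocytes and Itpr1 at 5.76 and 5.51 against 17.4 and 17.2. Their log2 differences were 1.44 and -1.46. Itpr2, with 2.79 and 2.62 FPKM in ferret and 4.64 and 4.01 in mouse astrocytes, was not called at -0.52 (limma adjusted p = 2.32e-04). Under either scaling, 3 genes of this list were called higher in place of 1.

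**Figure D4:**
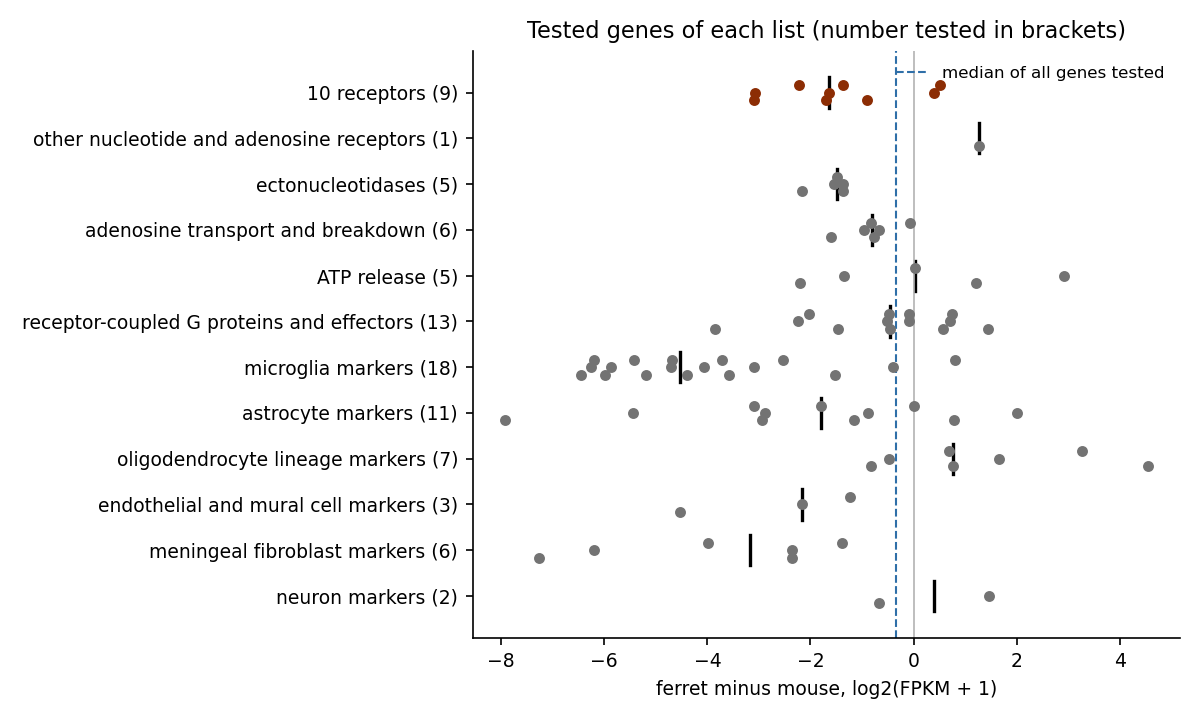
Difference between ferret and mouse astrocytes on the log2(FPKM + 1) scale for the tested genes of each list, 1 point per gene, with the median of each list as a black bar and that of all genes tested as a dashed line. The 5 ectonucleotidase genes tested all lie below -1, and the microglial markers reach -6.45.

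Markers of several cell types also differed between the libraries. Of the 11 astrocyte markers, 7 were called lower and 1, S100b, higher in ferret astrocytes. After rescaling 6 were lower and 2 higher, and after quantile normalization 5 were lower and 2 higher. The lipoprotein gene Apoe had 11.8 and 12.3 FPKM in ferret and 3035 and 3315 FPKM in mouse astrocytes. Slc1a2, a glutamate transporter gene, had 0.133 and 0.178 against 47.1 and 51.8 FPKM, and passed the minimum only through the mouse libraries. Aqp4, the water channel gene of astrocyte endfeet, had 24.8 and 21.8 against 201.5 and 209.9 FPKM, and Aldh1l1, a folate enzyme gene used to mark astrocytes, had 10.1 and 9.6 against 81.2 and 84.3 FPKM. On the log2(FPKM + 1) scale Apoe, Slc1a2, Aqp4 and Aldh1l1 differed by -7.93, -5.45, -3.09 and -2.95, with limma adjusted p-values of 1.7e-12, 1.44e-11, 1.68e-10 and 1.03e-10. Gfap was not called, at 1502 and 1487 FPKM on average in ferret and mouse astrocytes. S100b had 247.4 and 243.8 FPKM in ferret and 57.3 and 63.1 in mouse astrocytes, a log2 difference of 2.01. Aldoc also went this way without being called, at 0.78 (limma adjusted p = 3.59e-06), with 1619 and 1700 against 916.2 and 1015 FPKM. Astrocyte markers thus did not share 1 direction. The 7 called lower went the same way as Adora1 and P2ry1, and their part in the differences of both receptor genes was not tested. Of 9 oligodendrocyte lineage markers, 7 were tested and 3 were called higher in ferret astrocytes (5 with a pseudocount of 0.1), among them Sox10 and Mbp at 4.54 and 3.26. Sox10 passed the minimum only through the ferret libraries, so it could not have been called lower. Olig2 and Cspg4 went the other way without being called, at -0.82 and -0.47 (limma adjusted p = 1.85e-06 and 3.51e-04). All 6 meningeal fibroblast markers tested were lower in ferret astrocytes, with Col3a1, Ogn, Dcn and Col1a1 at -7.27, -6.2, -3.99 and -2.36. So were all 3 endothelial and mural cell markers tested, Cdh5, Pdgfrb and Tek, at -4.54, -2.16 and -1.23. Cdh5, Tek and the fibroblast marker Lum passed the minimum only through the mouse libraries. The defining endothelial genes were near 0 in both species. Pecam1 had 0 and 0 FPKM in ferret and 0.0407 and 0.0312 in mouse astrocytes, and Cldn5 had 0.0583 and 0 against 0 and 0. Flt1, Kdr and Rgs5 were also under the minimum. The called genes thus do not by themselves show endothelial cells in either species. Of the 2 neuron markers tested, Syt1 was called higher, at 1.46. Map2 went the other way without being called, at -0.68 (limma adjusted p = 2.23e-06). Rbfox3 was near 0 in both species, with 0 and 0.035 FPKM in ferret and 0.0667 and 0.0839 in mouse astrocytes. Stmn2 had 123.6 and 127.4 FPKM in the mouse libraries, with no ferret value used here. These markers give no direction for neurons. Over the genes with values in both species, summed levels ranged from 89.0 to 95.8 FPKM in ferret and from 21.3 to 23.4 in mouse libraries for oligodendrocyte lineage genes, and from 107.9 to 122.6 and from 944.4 to 989.3 for fibroblast genes. The oligodendrocyte lineage sum leaves out Olig1, for which no ferret value was used here. Olig1 alone stood at 107.4 and 116.9 FPKM in the mouse libraries, above the whole ferret sum, so the sums give no direction for this lineage. The part of these cells in the differences of the receptor genes was not tested.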

How the data were processed

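The authors aligned paired-end reads with STAR (version 2.7.0f) to the Ensembl genome of each species (MusPutFur1.0 for the ferret, GRCm38 for the mouse) and deposited FPKM per gene and library from Cufflinks (version 2.2.1). The deposited values hold no read counts. Read counts and gene lengths are listed in the study's supplement, which was read but not used here. Steps between low values give only the ratio of depths within a species (1.17 for ferret and 0.829 for mouse replicate 1 against replicate 2), so no counting interval is given. Symbols were matched in upper case. Where a symbol had several values, that with the highest species mean was kept. The comparison used limma (version 3.58.1, R 4.3.3, empirical Bayes with a trend). Values were set to log2(FPKM + 1), and genes were kept at a species mean of 1 FPKM or more in either species, after a test on simulated data, with Benjamini-Hochberg adjustment over all of them. This scale understates the fold change of genes with low values. Intervals are limma's 95% intervals of the log2 difference.

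The receptor genes and the lists were chosen with earlier results of these data known. All 10 receptor genes are named, and of each list up to 4 called genes with the largest differences and defining genes under the minimum in both species. The 3 tested genes closest to P2ry6 are named by likeness and overlapping genes by position. Those named beyond these rules (Ada, Adk, Nt5e, Entpd3, Enpp3, Alpl, Gnaq, Gnas, Itpr2, Itpr3, Sall1, Cx3cr1, Csf1r, Aif1, Gfap, S100b, Aldoc, Olig1, Olig2, Cspg4, Lum, Flt1, Kdr, Rgs5, Map2, Stmn2, P2rx5, P2ry10b, P2RY11, P2RY8 and Igsf10) were chosen after their values were seen. Mouse coordinates are from GENCODE M21 on GRCm38. Some genes of the lists are not reported here by name.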

Additional observations from a re-analysis of the deposited data

How the results depend on the processing

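Of the 9 receptor genes tested, 0 were called higher in ferret astrocytes under each of the 10 alternatives, and 6 were called lower in 8 of them. With a pseudocount of 0.1 the count was 7, since P2ry2 passed at -1.25, and after quantile normalization it was 5, since Adora2b stood at -0.93. None of the 9 changed direction. Leaving out each library in turn gave 6 lower every time. Over all genes, quantile normalization gave 2110 called higher in place of 1336, and 2090 called lower in place of 3069. With the libraries rescaled to the mean sum these counts were 1967 and 2215. The list genes called numbered 53, and 53 to 57 under the alternatives. The replicate numbers are shared by the labels of both species but do not pair animals, and deviations of same-numbered libraries had a correlation of 0.01. With the replicate number as a block, 6 receptor genes were called lower and 0 higher, 53 list genes were called, and 1342 and 3072 genes were called over all. FPKM gives no depth, and the read counts in the study's supplement were not used here, so values near 0, such as those of P2ry12, P2ry13 and P2ry14 in ferret astrocytes, carry no interval, and a gene listed at 0 may be a failed estimate.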

Other observations

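Some receptor genes of these families had a value in a single species among those used here. P2rx5, which encodes a P2X subunit, stood at 3.41 and 3.88 FPKM in the 2 mouse libraries, a range that overlapped with the 3.67 and 3.85 FPKM of P2ry2, and no ferret value of that symbol was used here. P2ry10b had 0.234 and 0.622 FPKM in the mouse libraries. P2RY11, an ATP receptor gene for which no mouse symbol was matched, stood at 0.206 and 0.38 FPKM in ferret astrocytes, and P2RY8 is listed at 0 in both. Gnas, the gene of the Gs alpha subunit to which the Adora2b receptor couples, reached 534.3 and 570.0 FPKM in mouse astrocytes, with no ferret value used here. Next to the P2ry12 cluster, Igsf10 had 0.0316 and 0.0453 FPKM in ferret and 2.3 and 2.24 FPKM in mouse astrocytes (log2 difference -1.66, limma adjusted p = 1.55e-08). It passed the minimum only through the mouse libraries.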
